A study of Homo sapiens with 6 samples.

Results

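Caveolae, clathrin-coated pits and flotillin domains are routes by which a cell takes in its membrane and the particles bound to it, extracellular vesicles among them. The 10 genes described here encode structural proteins of these routes: the caveola proteins CAV1, CAV2, CAVIN1 and CAVIN3, the clathrin chains CLTA, CLTB and CLTC, the fission GTPase DNM2 and the flotillins FLOT1 and FLOT2. They were taken as every array probe set annotated with exactly 1 gene symbol, that symbol being a member, which gave 37 of the 44988 single-symbol probe sets and 10 of 18132 genes. The cells were HMEC-1, an immortalised line of human microvascular endothelium, grown without serum. They had received for 24 hours either EPC-Exos at 1e+11 particles per mL, known from the study to be exosomes of endothelial progenitor cells, or PBS of the same volume, with 3 Affymetrix arrays per group. Both groups share the line and the medium. Nothing states whether arrays of a group came from separate cultures, so p-values cover only array-to-array spread, possibly technical. The labels name no batch, and any that coincided with the treatment cannot be told apart from it. PBS carries no particles, so an effect of any vesicle cannot be told apart from an effect of these vesicles.

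In endothelium, caveolae are abundant flask-shaped pits whose membrane is held by caveolins and coated on the inside by cavins, and they are rich in cholesterol. Clathrin is a lattice of heavy chains (CLTC) and light chains (CLTA, CLTB) that bends coated pits around receptors, and dynamin then cuts the neck of the bud. Flotillins assemble into domains of their own at the plasma membrane and on endosomes. Uptake of vesicles was not measured by the arrays, which read only RNA levels of the samples. RNA brought by the vesicles, if any, cannot be told apart from RNA of the recipient cells.

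After EPC-Exos 4 of the 10 genes fell (CAVIN3, CAV1, FLOT2 and CAVIN1), 2 were called higher (CLTB and CAV2) and 4 did not pass the test (CLTA, CLTC, DNM2 and FLOT1). The direction of CAV2 holds for its brightest probe set only: its other 2 probe sets changed by -0.13 each and were not called. The median log2 change of the 10 genes was -0.060. The falls of CAVIN3 (1.69-fold), CAV1 (1.45-fold) and FLOT2 (1.39-fold) were the larger changes, while the called changes of CAVIN1, CLTB and CAV2 were at most 1.13-fold. The call threshold was an adjusted p (Benjamini-Hochberg) under 0.05 in limma, fitted over all 11715 genes with enough signal, and each gene was read from its brightest probe set. Calls were common in the whole comparison: 49.1% of all genes tested were called, 21.7% higher and 27.3% lower, with a median log2 change of -0.011. The members' shares, 60% called, 20% higher and 40% lower, rest on 10 genes, and their count by itself is no result. The groups did not overlap in 5 of the 10 genes, against 55.7% of all genes. Only CAVIN3 passed the study's own threshold, 1.5-fold or more with p under 0.05 before adjustment, or 10% of the members against 9.89% of all genes. Without EPC-Exos replicate 2 or EPC-Exos replicate 3 the count of members called higher went from 2 to 0, and without PBS replicate 2, PBS replicate 3 or EPC-Exos replicate 1 it was 1.

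**Figure D1:**
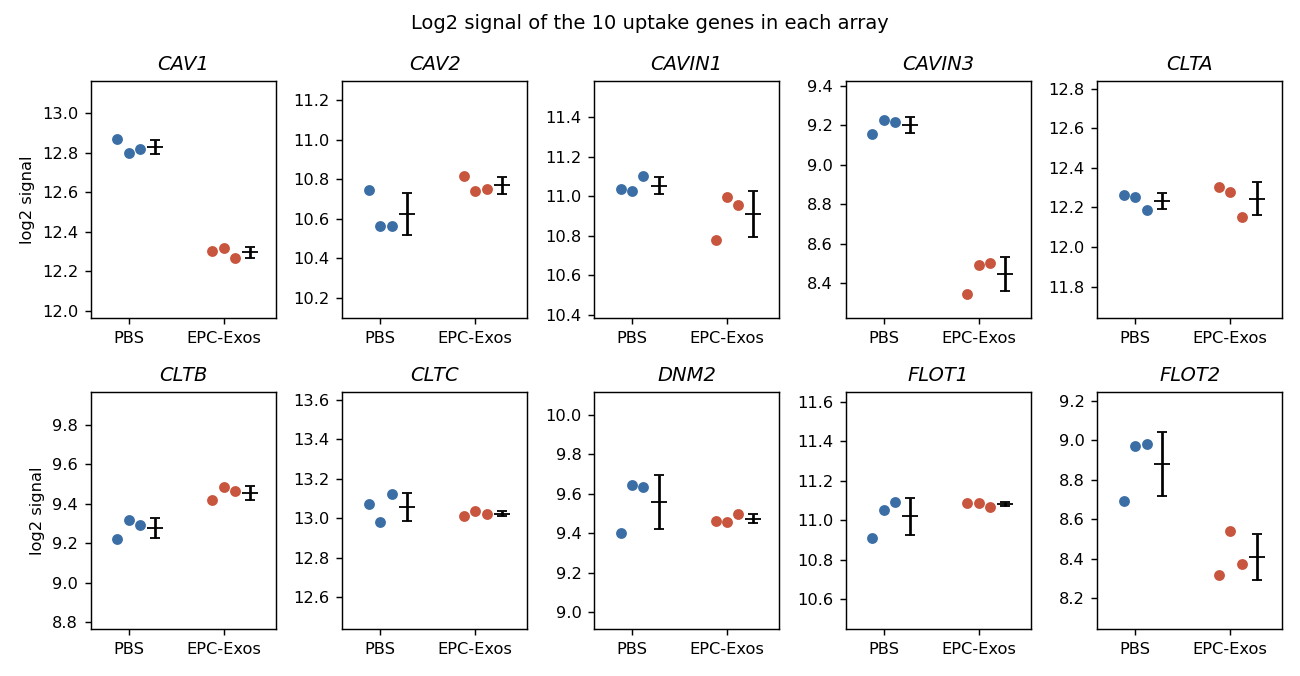
Log2 signal of each of the 10 uptake genes, read from its brightest probe set, in the 3 PBS arrays (blue) and the 3 EPC-Exos arrays (red); bars at the right of each group are the mean and SD, every panel spans the same range of log2 units, and levels are not comparable between panels. CAVIN3, CAV1 and FLOT2 are clearly lower with EPC-Exos, by 0.75, 0.53 and 0.47 log2 units, while CLTA, CLTC, DNM2 and FLOT1 overlap between the groups.

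Across the arrays the table was even: medians of the non-control probe sets lay between 6.24 and 6.34 log2 units, arrays of a group correlated at 0.997 and arrays of different groups at 0.988 to 0.989. The 3 prime minus 5 prime signal of the ACTB and GAPDH control probe sets, a sign of RNA integrity, differed between groups by 0.011 and 0.0092 log2 units. As a guide to background, 17 Tag controls, built to match nothing human, had means of at most 4.97; all 10 genes lay above it in both groups. Of 12 endothelial marker genes, 9 lay above that level in at least 1 group, and CDH5 (VE-cadherin), TEK and CLDN5 did not, so these markers of the labelled cell type could not be told from background. PECAM1 (CD31), with means of 5.18 with PBS and 5.23 with EPC-Exos, lay just above that level but was too dim for the test. Of 6 leukocyte markers 4 lay below the Tag level, PTPRC (CD45) included.

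The CAV1 and CAV2 genes are neighbours on chromosome 7, read from the same strand, with the starts listed by RefSeq 25271 bases apart, yet their changes differed. The flotillins differed as well. The 250 bases before the listed start are shown for both pairs, because each pair holds a member that was called lower and a member that was not. For CAV2 the probe sets disagreed in direction. They come from RefSeq on GRCh38.p14, written 5′ to 3′ on the gene's strand, with every GC box (GGGCGG on either strand, the motif of the Sp1 factor family) in capitals. The windows are chr7:116524759-116525008, plus strand, for CAV1 (the first of 3 listed starts), chr7:116499488-116499737, plus strand, for CAV2 (the first of 2), chr6:30742688-30742937, minus strand, for FLOT1, and chr17:28897734-28897983, minus strand, for FLOT2.
CAV1: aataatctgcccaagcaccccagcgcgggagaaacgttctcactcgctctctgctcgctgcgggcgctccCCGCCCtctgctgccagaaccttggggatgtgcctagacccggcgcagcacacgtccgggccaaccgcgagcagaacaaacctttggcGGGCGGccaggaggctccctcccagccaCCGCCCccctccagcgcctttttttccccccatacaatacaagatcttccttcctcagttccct
CAV2: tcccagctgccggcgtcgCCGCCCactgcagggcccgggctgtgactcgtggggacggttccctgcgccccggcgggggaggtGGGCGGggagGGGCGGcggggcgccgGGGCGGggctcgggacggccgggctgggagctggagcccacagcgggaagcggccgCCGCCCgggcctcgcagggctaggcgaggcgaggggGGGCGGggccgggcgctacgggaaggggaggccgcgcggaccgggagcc
FLOT1: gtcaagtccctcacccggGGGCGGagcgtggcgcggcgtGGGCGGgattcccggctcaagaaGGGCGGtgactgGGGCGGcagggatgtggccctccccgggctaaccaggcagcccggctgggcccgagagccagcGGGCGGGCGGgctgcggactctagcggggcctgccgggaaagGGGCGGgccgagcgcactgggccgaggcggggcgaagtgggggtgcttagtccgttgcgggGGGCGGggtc
FLOT2: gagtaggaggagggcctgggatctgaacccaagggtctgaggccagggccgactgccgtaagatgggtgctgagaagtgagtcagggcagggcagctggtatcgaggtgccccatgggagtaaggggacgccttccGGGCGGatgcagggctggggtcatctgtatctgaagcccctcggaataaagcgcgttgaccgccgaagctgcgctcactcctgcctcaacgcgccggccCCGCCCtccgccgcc

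The number of GC boxes, with overlapping matches counted separately, was 3 for CAV1, 6 for CAV2, 8 for FLOT1 and 2 for FLOT2. It was 2 for CLTA, 2 for CLTB, 1 for CLTC and 1 for DNM2, none of which was called lower. Any link between these counts and the changes was not tested. GC content was 63.6% in the CAV1 window, 83.2% for CAV2, 76.8% for FLOT1 and 66.0% for FLOT2. In the windows of the other 4 genes it ran from 60.8% for CLTC and DNM2 to 76.4% for CLTB, against a median of 58.0% over the windows of all 34943 listed starts. RefSeq windows were matched for 8 of the 10 genes, all but CAVIN1 and CAVIN3. All 8 held a GC box, against 42.5% of all windows; 2 of 8, CLTA and DNM2, held a CCAAT box (CCAAT, either strand), against 32.0%. None of the 8 held TATAAA or TCACCCCA, the core of a sterol regulatory element, on either strand, which 10.8% and 1.29% of all windows held. These are matches of letters only, in these windows.

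CAV1 encodes caveolin-1, the membrane protein without which endothelial caveolae do not form. Its log2 signals were 12.87, 12.80 and 12.82 in the PBS arrays and 12.30, 12.32 and 12.27 in the EPC-Exos arrays. Every EPC-Exos array was lower than every PBS array, and the gap between the groups, 0.48, was many times the SD within them (0.034 and 0.027, n = 3 each). CAV1 fell by 0.53 ± 0.033 (SE) on the log2 scale, with a limma adjusted p of 1.54e-09. All 4 of its probe sets fell, by 0.45 to 0.62, but 2 of them differed by at most 4e-04 log2 units on any array and so carry the same reading. In these bulk samples, fewer cells with the transcript and less RNA per cell cannot be told apart, here and for the other members.

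CAVIN3 showed the largest change of the members. It encodes a cavin that binds protein kinase C delta and sits in the inner coat of caveolae. Its signals were 9.15, 9.23 and 9.22 with PBS and 8.35, 8.49 and 8.50 with EPC-Exos, so the groups were apart by 0.65. The log2 change was -0.75 ± 0.067 (SE), with an adjusted p of 1.05e-07, and 94.1% of all genes tested changed by less in size. This gene has 1 probe set, of the _s_at kind, which can bind transcripts of related genes, and no second reading of it exists on the array.

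CAVIN1 encodes the cavin that the caveola coat is built on. Its signals were 11.04, 11.03 and 11.10 with PBS and 10.78, 11.00 and 10.96 with EPC-Exos. The groups were apart by only 0.028, and EPC-Exos replicate 1 was the lowest array. It fell by 0.14 ± 0.055 (SE), with an adjusted p of 0.0416, and the call was lost without EPC-Exos replicate 1 (-0.077, adjusted p = 0.277), EPC-Exos replicate 3 (-0.17, adjusted p = 0.0521) or PBS replicate 3 (-0.12, adjusted p = 0.119). It was also lost with median centring, without the signal filter and without the variance trend, with adjusted p from 0.00625 to 1 over all alternatives. All 3 of its probe sets were nevertheless called lower in the fit over probe sets, with log2 changes of -0.14, -0.21 and -0.26.

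For CAV2, which encodes caveolin-2, the partner that assembles with caveolin-1, the probe sets disagreed. The brightest had signals of 10.74, 10.56 and 10.56 with PBS and 10.82, 10.74 and 10.75 with EPC-Exos. PBS replicate 1 lay just above the lowest EPC-Exos array, so the groups overlapped. This probe set rose by 0.15 ± 0.055 (SE; adjusted p = 0.0393), a call lost without PBS replicate 2 or 3 or without any of the EPC-Exos replicates (adjusted p of 0.126, 0.124, 0.159, 0.0666 and 0.0754), and in all kept in 8 of 19 alternatives. The other 2 probe sets changed by -0.13 ± 0.066 each and were not called (adjusted p = 0.114 and 0.116 over probe sets); they differed by at most 0.005 on any array, so they count as a single reading. With the mean of its probe sets CAV2 changed by -0.039, so no direction is given for this gene.

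Set against CAV2 on the same array, CAV1 was lower with EPC-Exos in every array. The CAV1 minus CAV2 difference of log2 signals was 2.12, 2.24 and 2.26 with PBS and 1.49, 1.58 and 1.52 with EPC-Exos, a change of -0.68, which is a 1.60-fold lower ratio. With the second brightest CAV2 probe set, an alternative chosen after the data were seen, the change was -0.40. The CAV1 minus CAVIN1 difference was 1.83, 1.77 and 1.72 with PBS and 1.52, 1.32 and 1.31 with EPC-Exos, a change of -0.39. Leaving out _x_at and _s_at probe sets made it -0.19, with an exact permutation p of 0.2. Otherwise the groups were apart in both comparisons, and the exact two-sided permutation p was 0.1, the smallest that 3 against 3 arrays can give, so this test cannot pass 0.05 in this design.

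**Figure D2:**
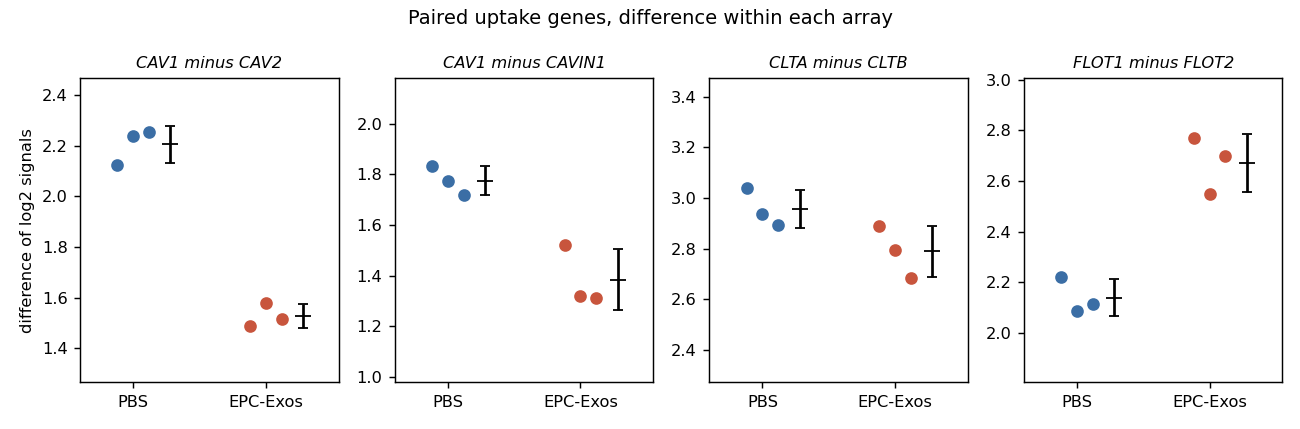
Difference of the log2 signals of paired genes within each array, for CAV1 and CAV2, CAV1 and CAVIN1, CLTA and CLTB, and FLOT1 and FLOT2, in the PBS (blue) and EPC-Exos (red) arrays with mean and SD; only the shift between groups has a meaning, not the height. The shift is -0.68, -0.39, -0.17 and 0.53, and the groups are clearly apart except for CLTA and CLTB, whose nearest arrays almost touch.

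The other genes of the caveola moved in both directions. Of 10 caveola partners, 7 had enough signal: 3 fell, 2 rose and the others were not called. Their median log2 change was -0.016. CAVIN2, a cavin that helps bend the caveola membrane, fell most: its signals were 8.93, 8.57 and 8.76 with PBS and 7.60, 7.46 and 7.54 with EPC-Exos. That is a 2.33-fold fall (-1.22 ± 0.087, adjusted p = 7.47e-09), with the groups far apart. EHD2, the ATPase that holds caveolae at the cell surface, fell by 0.45 ± 0.066 (adjusted p = 2.65e-05), while its relative EHD4 rose by 0.35 ± 0.052. The membrane-bending protein gene PACSIN3 rose by 0.38 ± 0.080. EHD1, an endosomal recycling relative, changed by -0.27 ± 0.063 and was called, but with the mean of its probe sets it changed by -0.0013 (adjusted p = 0.989) and by -0.10 once _x_at and _s_at probe sets were left out (adjusted p = 0.288).

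Most tested markers of fibroblast and mural cells, which are also rich in caveolae, were lower with EPC-Exos. Of 8 such markers 5 were tested. DCN (-2.21), ACTA2 (-1.85), PDGFRB (-1.29) and COL1A1 (-0.67) were called lower, and THY1 (0.23) was called higher. The summed linear signal of all 8 ran from 3342 to 3817 in the PBS arrays and from 2313 to 2552 in the EPC-Exos arrays. COL1A1, the brightest, weighs most in this sum, with means of 11.07 log2 units with PBS and 10.40 with EPC-Exos. LUM, too dim for the test, had means of 5.97 and 3.67, and PDGFRA and COL1A2 lay below the Tag level in both groups. The summed signal of the 12 endothelial markers ran from 2233 to 2576 with PBS and from 3046 to 3111 with EPC-Exos. ENG (endoglin) had the highest called change of them, from a mean of 9.16 to 9.96 log2 units; TIE1 and ESAM were also called higher, and the other 5 of the 8 tested were not called. Leukocyte markers summed to 308 to 318 and 443 to 485. Only CD68, a lysosomal protein gene, was bright enough to test among them, with means of 7.73 and 8.47, while PTPRC, CD14, LYZ and ITGAM lay below the Tag level in both groups. Epithelial markers summed to 337 to 370 and 319 to 339. The part of these genes in the falls of CAV1 and the cavins was not tested.

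Of the clathrin chains only CLTB passed the test. CLTC, the heavy chain, had signals of 13.07, 12.98 and 13.12 with PBS and 13.01, 13.04 and 13.02 with EPC-Exos, and the EPC-Exos arrays lay inside the PBS range. Its log2 change was -0.034 ± 0.035 (SE; adjusted p = 0.449), with a 95% confidence interval of -0.11 to 0.040. Of its 4 tested probe sets 3 were not called; the dimmest of these 4 rose by 0.33 ± 0.10 (adjusted p = 0.0148 over probe sets), although its groups overlapped. The direction for CLTC turned with the mean of its probe sets (0.11) and when _x_at and _s_at probe sets were left out (0.034).

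The light chains bind along the heavy chain and tune lattice assembly. CLTA had signals of 12.26, 12.25 and 12.19 with PBS and 12.31, 12.28 and 12.15 with EPC-Exos, a change of 0.011 ± 0.043 (adjusted p = 0.851, 95% interval -0.079 to 0.10). None of its 8 tested probe sets was called in limma, with changes from -0.0087 to 0.080. CLTB, measured by 1 probe set, had 9.22, 9.32 and 9.29 with PBS and 9.42, 9.48 and 9.47 with EPC-Exos. All EPC-Exos arrays were higher, with the groups 0.10 apart. CLTB rose by 0.18 ± 0.059 (adjusted p = 0.0192), a 1.13-fold change, and the call was lost without EPC-Exos replicate 2 (adjusted p = 0.0684) or EPC-Exos replicate 3 (adjusted p = 0.0706). The CLTA minus CLTB difference went from 2.96 ± 0.075 with PBS to 2.79 ± 0.10 with EPC-Exos (SD, n = 3), with single arrays of the groups at nearly the same value (2.89 for PBS replicate 3 and 2.89 for EPC-Exos replicate 1). Its exact permutation p was 0.1, again the smallest possible.

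DNM2 encodes the dynamin of most tissues, the GTPase that cuts both coated pits and caveolae from the membrane. Its signals were 9.40, 9.64 and 9.63 with PBS and 9.46, 9.46 and 9.50 with EPC-Exos. PBS replicate 1 was the lowest array of all and the other PBS arrays were the highest. The log2 change was -0.087 ± 0.068 (adjusted p = 0.318, 95% interval -0.23 to 0.057), and without PBS replicate 1 it was -0.17 and was called (adjusted p = 0.0248). None of its 3 probe sets was called in limma, and with their mean the change was 0.011, so the array gives no direction for it.

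The flotillins, which form hetero-oligomers in life, were unlike each other in these arrays. FLOT2 had signals of 8.69, 8.97 and 8.98 with PBS and 8.32, 8.54 and 8.37 with EPC-Exos, so every EPC-Exos array was lower and the groups were apart by 0.15. It fell by 0.47 ± 0.085 (SE; adjusted p = 0.00022), and its second probe set, with 6.93, 7.08 and 7.21 with PBS and 6.56, 6.84 and 6.87 with EPC-Exos, fell by 0.32 ± 0.11 (adjusted p = 0.0209 over probe sets). FLOT1 had 10.91, 11.05 and 11.09 with PBS and 11.09, 11.09 and 11.07 with EPC-Exos. PBS replicate 1 was its lowest array, and the others lay together. FLOT1 changed by 0.062 ± 0.050 (adjusted p = 0.331, 95% interval -0.044 to 0.17), and none of its 6 probe sets was called, with changes from 0.037 to 0.15. The FLOT1 minus FLOT2 difference was 2.22, 2.09 and 2.11 with PBS and 2.77, 2.55 and 2.70 with EPC-Exos. This is a 1.45-fold higher ratio (0.53, exact permutation p = 0.1, the smallest possible here).

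**Figure D3:**
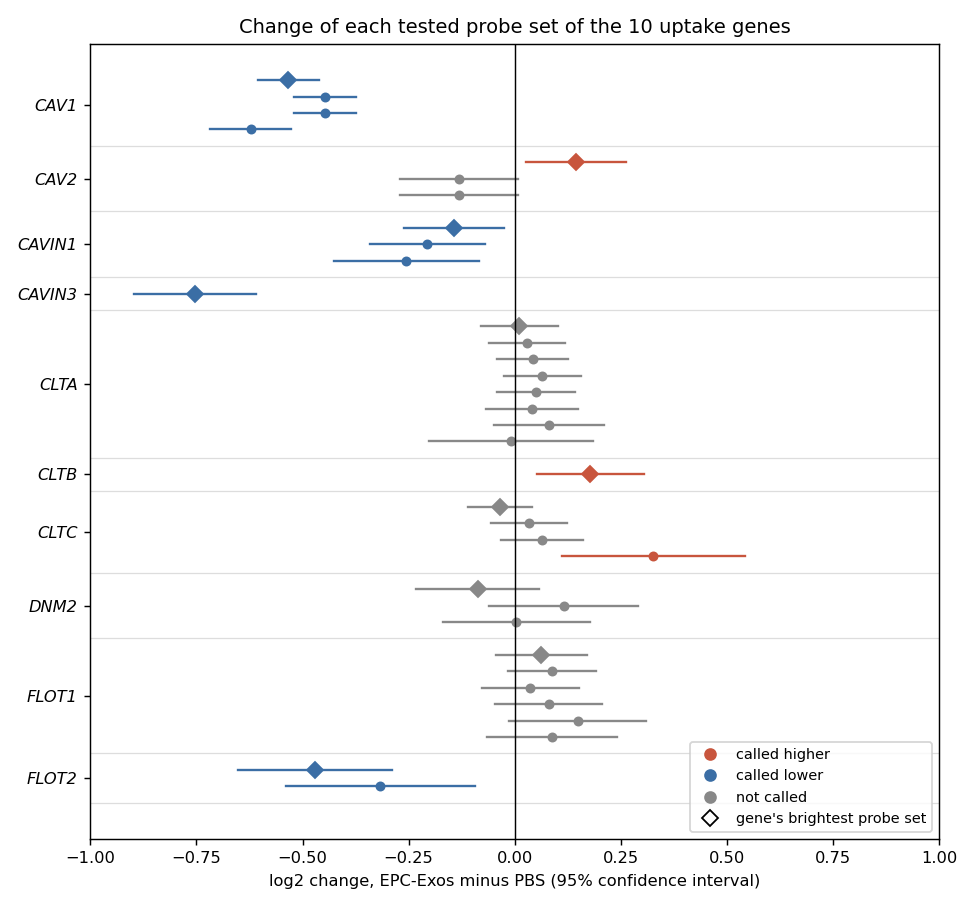
Log2 change, EPC-Exos minus PBS, with its 95% confidence interval from limma, of the 35 tested probe sets, grouped by gene; diamonds mark the brightest probe set of a gene, red and blue mark probe sets called higher and lower, and grey those not called. All probe sets of CAV1, CAVIN1 and FLOT2 lie below 0, those of CAV2 lie on both sides, and those of CLTA, DNM2 and FLOT1 stay near 0.

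Over probe sets, 35 of the members' 37 passed the signal filter, and the 2 that did not, of CLTA and CLTC, lay below the Tag level. Of the 35, 10 fell, namely every probe set of CAV1, CAVIN1, CAVIN3 and FLOT2, and 3 rose, 1 each of CAV2, CLTB and CLTC. That is 37.1% called, 8.57% higher and 28.6% lower, against 45.8%, 22.1% and 23.7% of all 27244 probe sets tested. The groups did not overlap in 15 probe sets, or 42.9%, against 53.4% of all. The count of lower probe sets was 5 without _x_at and _s_at ones and 6 without PBS replicate 3, and without EPC-Exos replicate 1, 2 or 3 the count of higher ones was 1.

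**Figure D4:**
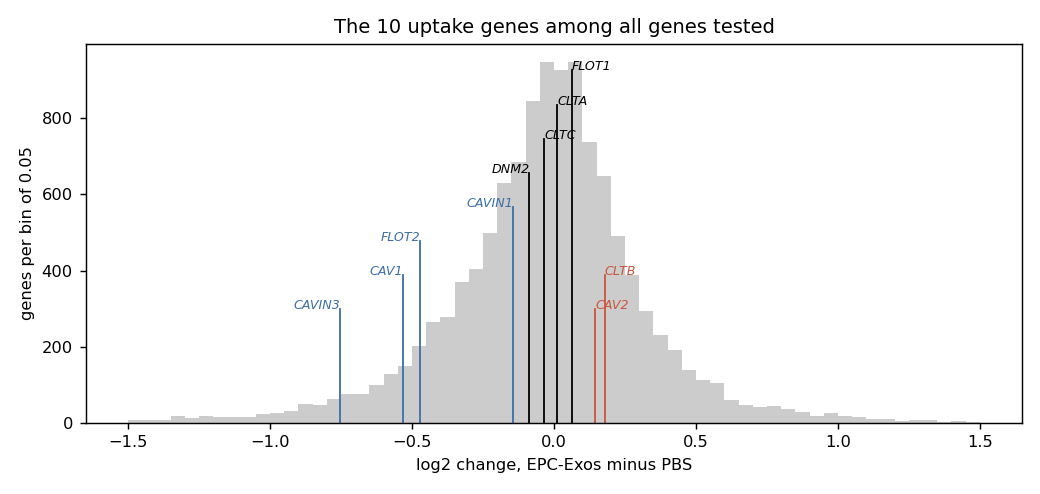
Histogram of the log2 changes of all 11715 genes tested, in bins of 0.05, with the 10 uptake genes as vertical lines whose height only separates the labels (blue called lower, red called higher, black not called); 104 genes beyond 1.5 in either direction are not drawn. CAVIN3, CAV1 and FLOT2 stand in the left flank and the other members near the centre.

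Read against all genes, the size of the change was exceeded by few in CAVIN3 and by somewhat more in CAV1 and FLOT2: 94.1%, 87.9% and 84.8% of all genes tested changed by less. The other members were below the median size of 0.18, from 3.64% for CLTA to CLTB, which was next to that median.

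Beyond the members, 65 of 83 partner genes of these routes had enough signal, of which 25 were called lower and 10 higher. With both directions pooled 53.8% were called, against 49.1% of all genes tested, a share near that background. By direction, 27.3% of all genes tested were called lower and 21.7% higher, so the partners leaned further to the lower side in the main fit. The median log2 change of the partners was -0.061. The lower count was 12 with the mean of each gene's probe sets and 15 with _x_at and _s_at probe sets left out. The partner lists were written from textbook knowledge. The share called was 71.4% of tested caveola partners, 52% of clathrin adaptors and pit proteins and 38.5% of fission and uncoating genes. It was 50% for other uptake routes and 75% for cargo receptors. The lists are short, so these shares and the counts by list are no result by themselves. Among 25 tested clathrin adaptors and pit proteins, 10 fell and 3 rose (median -0.047); the lower count was 2 with the mean of probe sets, 5 with _x_at and _s_at probe sets left out or without EPC-Exos replicate 3, and 6 without PBS replicate 3 or EPC-Exos replicate 1. The endocytic scaffold ITSN1 (-0.44 ± 0.067), the actin linker HIP1R (-0.41 ± 0.069), the cargo adaptor DAB2 (-0.49 ± 0.074) and the second heavy chain gene CLTCL1 (-0.58 ± 0.10) fell most. Which probe set was read mattered here: HIP1R and ITSN1 were not called with the mean of their probe sets (adjusted p = 0.363 and 0.336), and DAB2 and CLTCL1 not without _x_at and _s_at probe sets (adjusted p = 0.149 and 0.0672). The assembly protein PICALM (0.24 ± 0.041), the AP-2 subunit AP2S1 (0.14 ± 0.038) and EPS15L1 (0.29 ± 0.094) rose. Another AP-2 subunit gene, AP2B1, was called lower (-0.18 ± 0.060, limma adjusted p = 0.0208), and AP2A1, AP2A2 and AP2M1 were not called. Without the variance trend AP2S1 was not called either (limma adjusted p = 0.0751). The EPS15L1 call was lost without PBS replicate 2 (adjusted p = 0.0814) or EPC-Exos replicate 2 (adjusted p = 0.0882).

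Of 13 tested fission and uncoating genes, 3 fell and 2 rose (median -0.062). With the mean of probe sets 1 was called higher and none of these 3 lower in limma, since DNAJC6 and SH3GL3 then lay under the signal filter and were not tested. DNAJC6, auxilin, which brings the uncoating chaperone to clathrin, fell by 0.79 ± 0.087 (adjusted p = 1.21e-06), with signals of 6.97, 6.92 and 6.92 against 6.15, 6.16 and 6.15. The chaperone itself, HSPA8, rose by 0.17 ± 0.027, and the lipid phosphatase gene SYNJ1 fell by 0.47 ± 0.076, a call lost with the mean of its probe sets (adjusted p = 0.0942). SNX18 changed by 0.27 ± 0.083 and SH3GL3 by -0.32 ± 0.12. Without PBS replicate 3 or EPC-Exos replicate 1 SNX18 was not called (adjusted p = 0.0739 and 0.0765), and the count of rises was 1. The SH3GL3 call was lost without PBS replicate 1 or 2 or EPC-Exos replicate 1 (adjusted p = 0.0665, 0.0906 and 0.197).

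Of 12 tested genes of other uptake routes, which include actin-driven and tubular uptake, 5 fell and 1 rose (median -0.080). With the mean of probe sets 5 were called lower and 4 higher, and with _x_at and _s_at probe sets left out 2 and 3. ARHGAP26, a membrane-shaping protein of the tubular route, changed by -0.85 ± 0.090 (adjusted p = 7.44e-07), and by -0.22 without _x_at and _s_at probe sets, where it was not called (adjusted p = 0.0918). The GTPase gene CDC42 rose by 0.25 ± 0.057; without PBS replicate 1 the count of rises was 2. CTBP1 fell by 0.17 ± 0.044. WASL, an activator of actin branching, changed by -0.33 ± 0.054 and ANKFY1 by -0.29 ± 0.063. Neither was called with the mean of its probe sets (adjusted p = 0.133 and 0.292), where ANKFY1 turned to 0.089. Without _x_at and _s_at probe sets WASL changed by only -0.069 and was not called (limma adjusted p = 0.586).

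Among 8 tested cargo receptors 4 fell and 2 rose (median -0.098). TFRC, the transferrin receptor and the textbook cargo of clathrin-coated pits, fell by 0.52 ± 0.038 (adjusted p = 8.76e-09): its signals were 12.32, 12.26 and 12.31 with PBS and 11.77, 11.82 and 11.75 with EPC-Exos, with no overlap. INSR, the insulin receptor, fell by 0.94 ± 0.078 (adjusted p = 4.36e-08), and VLDLR and the lipoprotein receptor gene SCARB1 rose by 0.67 ± 0.079 and 0.41 ± 0.071. LRP1 changed by -0.33 ± 0.087, a call lost with the mean of its probe sets (adjusted p = 0.686). IGF2R changed by -0.15 ± 0.051, a call lost without PBS replicate 2 or 3 or EPC-Exos replicate 1 or 3 (adjusted p from 0.0733 to 0.118).

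**Figure D5:**
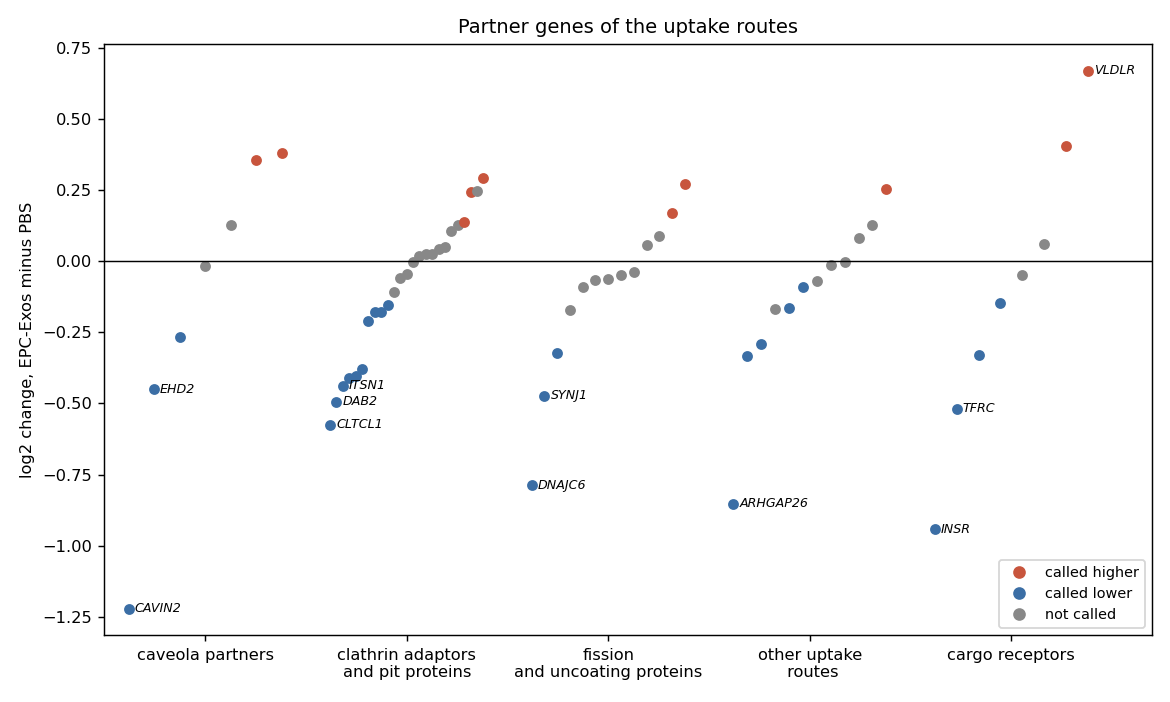
Log2 change, EPC-Exos minus PBS, of the 65 tested partner genes in 5 lists, each point a gene in order of its change; red and blue mark genes called higher and lower, grey those not called, and names are given where a called change was at least 0.43. CAVIN2 (-1.22) is the lowest point and VLDLR (0.67) the highest, and each list holds genes on both sides of 0.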

How the data were processed

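Values are the deposited log2 signals of 49395 probe sets on 6 arrays. Their log2 scale was taken from their range (2.47 to 14.52), and MAS5 is named without a role in the submitters' processing notes; how they were summarised and scaled is not given in the sources used here. Deposited scaling was kept. Probe sets were named through the supplied platform annotation. A gene was its single-symbol probe set with the highest mean, tested where that mean reached the 40th percentile of non-control probe sets (5.45). The test was limma 3.58.1 (R 4.3.3, lmFit, then eBayes with a variance trend), two-sided, over 11715 genes, and separately over 27244 probe sets. The fit was also run on simulated data with far fewer changed genes, which gives no error rate for the calls reported here. Changes are EPC-Exos minus PBS, SE is limma's moderated standard error, and n is 3 arrays a group; the number of arrays limits the precision. Named partners are up to 4 called genes in each direction per list, and the other AP-2 subunits beside AP2S1. Of 83 partner genes 77 were matched to a probe set. Members and lists were chosen with earlier results of these data known. Alternatives tried were other scalings (quantile, cyclic loess, median), offsets of 16 and 64, other filters and probe-set rules, no trend, a block for the replicate number, weighting of arrays, a test against a fold of 1.2 and leaving out each array.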

Additional observations from a re-analysis of the deposited data

How the results depend on the processing

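CAV1 and CAVIN3 kept their fall and their call in every alternative run for them (19 and 18; CAVIN3 has no probe set without _x_at and _s_at ones), and FLOT2 in 18 of 19, the exception being limma's test against a fold of 1.2 (adjusted p = 0.0804). Of 165 recomputed counts and paired differences, 137 stayed within 1.5 times or kept their sign. The count of members called higher, 2, was 1 with quantile, cyclic loess or median scaling, with the mean of probe sets and without the variance trend, 0 at the study's threshold and against a fold of 1.2, and 0 to 2 when single arrays were left out. The count that fell, 4, was 2 against a fold of 1.2, 1 at the study's threshold, and 3 to 5 with single arrays left out. Member probe sets that rose, 3, numbered 1 without the trend, 0 against a fold of 1.2 and 1 to 2 with single arrays left out; those that fell, 10, numbered 5 without _x_at and _s_at probe sets and 5 against a fold of 1.2, and 6 to 11 with single arrays left out. Partner genes that rose, 10, numbered 1 at the study's threshold and 1 against a fold of 1.2; those that fell, 25, numbered 12 with the mean of probe sets, 15 without _x_at and _s_at probe sets, 9 against a fold of 1.2 and 4 at the study's threshold. The direction of CAV2 turned with the mean of probe sets (-0.039), as did those of CLTC (0.11, and 0.034 without _x_at and _s_at probe sets), DNM2 (0.011) and ANKFY1 (0.089). CLTA, never called, turned with quantile (-0.011) and cyclic loess scaling (-0.013), and ranged from -0.019 to 0.059 with single arrays left out. The causes were not tested.

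The replicate numbers are shared between the groups. The deviations of same-numbered arrays correlated at 0.20, 0.18 and 0.077, and 6 of 6 arrays correlated best with their own number. These matches come from 3 same-numbered pairs, each counted from both sides, so they are not independent and cannot settle a pairing. The arrays may be paired by number, which the main fit did not take into account. With the replicate block, 2 members rose and 4 fell, 3 member probe sets rose and 10 fell, and 10 partner genes rose and 27 fell; over all genes 2724 rose and 3394 fell, against 2545 and 3203 without it.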
